A study of Hakea laurina with 6 samples.

Results

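The 3 putative carboxylate efflux transporters of *Hakea laurina* described here are the malate channel *HalALMT1* (contig TRINITY_DN845_c1_g1) and the MATE contigs TRINITY_DN255355_c0_g1 and TRINITY_DN4986_c0_g1. They are 3 of the 183999 contigs assembled *de novo* from root RNA, and 3 of the 7819 contigs to which the authors' deposited table gives an Arabidopsis name. All 3 were picked because they were higher in mature cluster roots than in root tips in these same libraries. That contrast is therefore described for them without a test, and p-values are given only for other contigs. All 3 stayed in the fit over all contigs and in its counts of calls. Their places by fold change are description and no support for the choice.

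Aluminum-activated malate transporters (ALMT) are anion channels, and those first described in wheat and Arabidopsis release malate from root cells when exposed to Al. MATE proteins (multidrug and toxic compound extrusion) are carriers driven by ion gradients, and different members export citrate, flavonoids or toxic compounds. Cluster roots, the dense bottlebrush-like rootlets of most Proteaceae, release carboxylates that free P bound to soil minerals, and both families are candidates for the step across the plasma membrane.

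The transcripts were sequenced from mature cluster roots (MCR), whose rootlets were fully elongated, and from root tips (TCR, the tips of lateral roots that bear clusters), with 3 libraries of each. Both root types came from *H. laurina* plants about 3 yr old under low-P hydroponics in a glasshouse. The plants stood as 6 seedlings to a 4 L container and received 6.4 μM P once in 2 to 3 months, with no P in the solution otherwise. Neither root type had a high-P or Al treatment beside it, so the libraries hold a comparison of root types only. The root types used here are those of the sample titles. The tissue labels of the same libraries are swapped against the titles, and all directions below would turn round if the tissue labels were the right ones.

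The libraries held between 13583804 (TCR1) and 19119483 (MCR3) estimated counts. A contig was tested where its mean was 0.4 CPM (counts scaled to library size) or more in at least 1 root type. It was called if its Benjamini-Hochberg adjusted p in edgeR's quasi-likelihood test, over all 49813 contigs tested, was below 0.05 and its log2 fold change at least 1 in size. In this fit 1196 contigs were called higher in MCR and 2981 in TCR. RLE size factors in place of TMM factors made the split 1589 and 2399, and the median log2 fold change of all contigs moved by 0.26 from 0.57. MCR3 stood apart from the other MCR libraries. Its Spearman correlation over the contigs tested was 0.871 with TCR3, against 0.626 with MCR1 and 0.515 with MCR2.

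The closest Arabidopsis match of *HalALMT1* in the authors' annotation was AT4G00910, an ALMT family protein of 497 amino acids encoded on the reverse strand of chromosome 4 (389370 to 391287, TAIR10). DN255355_c0_g1 matched AT1G33100, a MATE efflux family protein of 491 amino acids on the forward strand of chromosome 1 (11997683 to 12001308). DN4986_c0_g1 matched AT3G21690, a MATE efflux family protein of 506 amino acids on the forward strand of chromosome 3 (7638750 to 7641861). The contigs have no position in an *H. laurina* genome here, and the files give neither their sequences nor their lengths. Levels are therefore compared between libraries and not between contigs.

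*HalALMT1* was present in both root types. Its level, in CPM after TMM normalization, was 25.7, 28.1 and 29.0 in MCR1, MCR2 and MCR3, against 4.87, 4.72 and 11.8 in TCR1, TCR2 and TCR3. These rest on 379, 450 and 477 counts in MCR and 68, 77 and 217 counts in TCR. The MCR libraries lay close together, TCR1 and TCR2 did so at a lower level, and TCR3 stood above both without reaching MCR. The lowest MCR library was 2.18 times the highest TCR library. The mean was 27.6 ± 1.69 CPM in MCR and 7.13 ± 4.05 CPM in TCR (SD, n = 3 each), a ratio of 3.87. The fitted log2 fold change was 1.95, and without TCR3 it was 2.56.

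The ratio of MCR to TCR for *HalALMT1* was 5.28 between the libraries numbered 1, 5.95 between those numbered 2 and 2.46 between those numbered 3. The direction was the same in all 3, and the smallest ratio was the one that involves TCR3. Summed over libraries and scaled to library size, the counts gave a ratio of 3.72, with an exact binomial 95% interval of 3.31 to 4.19 that covers counting error only. Among the 799 annotated contigs called higher in MCR, the log2 fold change of *HalALMT1* took place 624 from the top, so most of these contigs had a larger fold.

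**Figure D1:**
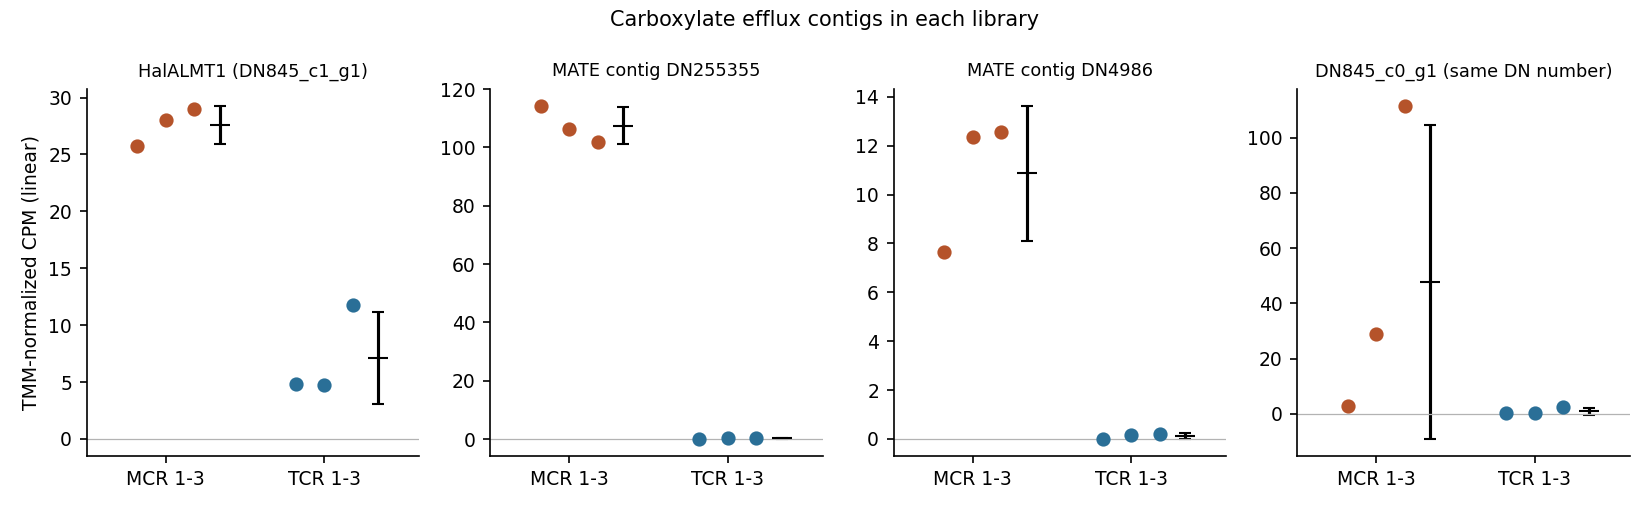
TMM-normalized CPM of *HalALMT1*, the 2 MATE contigs and the other contig numbered DN845 in each library, with MCR left of TCR; each point is 1 library and the bars show the mean and SD of 3. The MCR points of *HalALMT1* (25.7 to 29.0 CPM) and of DN255355_c0_g1 (101.7 to 114.3 CPM) sit close together, whereas those of DN845_c0_g1 spread from 2.65 to 111.6 CPM.

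DN255355_c0_g1 was abundant in MCR and nearly without reads in TCR. Its level was 114.3, 106.2 and 101.7 CPM in MCR1, MCR2 and MCR3, against 0.0716, 0.245 and 0.490 CPM in TCR1, TCR2 and TCR3. The counts were 1684, 1703 and 1673 in MCR and 1, 4 and 9 in TCR. The MCR libraries were alike to within 1.12-fold, and every TCR library was at a few counts, with TCR3 again the highest. The mean was 107.4 ± 6.37 CPM in MCR and 0.269 ± 0.210 CPM in TCR (SD, n = 3 each). The summed and scaled counts gave a ratio of 372, with a counting interval of 222 to 682. The fitted log2 fold change was 8.55, place 49 among the 799 annotated contigs called higher in MCR, and it was 9.34 without TCR3 and 8.16 without TCR1.

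DN4986_c0_g1 showed the same order of root types at fewer counts. It had 7.67, 12.4 and 12.6 CPM in MCR1, MCR2 and MCR3, against 0, 0.184 and 0.218 CPM in TCR1, TCR2 and TCR3. These were 113, 198 and 207 counts in MCR and 0, 3 and 4 counts in TCR. MCR1 was the lowest MCR library, and the TCR libraries were at or near no reads. The mean was 10.9 ± 2.77 CPM in MCR and 0.134 ± 0.117 CPM in TCR (SD, n = 3 each), and the summed and scaled counts gave a ratio of 76.3 with a counting interval of 36.7 to 191. The fitted log2 fold change was 6.22, place 121 among the same 799 contigs. At this depth 1 count was worth 0.0544 to 0.0716 CPM, so the TCR levels of both MATE contigs, and hence the size of their folds, rest on 14 and 7 counts in all.

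The contigs differed in how far their TCR level fell below MCR. The ratio of DN255355_c0_g1 to *HalALMT1* was 4.44, 3.78 and 3.51 in MCR1, MCR2 and MCR3, against 0.0147, 0.0519 and 0.0415 in TCR1, TCR2 and TCR3. The ratio of DN4986_c0_g1 to *HalALMT1* was 0.298, 0.440 and 0.434 in MCR1, MCR2 and MCR3, against 0, 0.0390 and 0.0184 in TCR1, TCR2 and TCR3. Each ratio was of like size within MCR and lower in every TCR library, since *HalALMT1* had 68 to 217 counts in the TCR libraries and the MATE contigs 0 to 9. Contig length enters such a ratio equally in every library, so only its change among libraries is read here.

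The spread among MCR libraries is part of how these contigs were chosen, since the study narrowed its candidates by a second test on these libraries that favours a low spread, and is given as a description. The highest MCR library was 1.13 times the lowest for *HalALMT1*, 1.12 times for DN255355_c0_g1 and 1.64 times for DN4986_c0_g1. The median of this ratio over the 799 annotated contigs called higher in MCR was 2.01, and 265 of them had a smaller spread than DN4986_c0_g1. In the annotated table as a whole, 3069 of the 4210 contigs higher in MCR were uneven, meaning that the lowest MCR library was below 0.1 of the mean of the others. None of the 3 transporters was uneven.

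*HalALMT1* was not the only contig numbered DN845 by Trinity. DN845_c0_g1 shares that number and the closest match, AT4G00910, but belongs to another read cluster (c0, against c1 for *HalALMT1*), and whether their sequences overlap is not known here. Its level was 2.65, 28.9 and 111.6 CPM in MCR1, MCR2 and MCR3, against 0.286, 0.123 and 2.40 CPM in TCR1, TCR2 and TCR3. The MCR libraries spanned 42.2-fold, with MCR3 the highest, and MCR1 was barely above TCR3, the highest TCR library. The log2 fold change was 5.64 ± 1.59 (SE) with an adjusted p of 0.077, so DN845_c0_g1 was not called by edgeR's quasi-likelihood test. It was called with the replicate number as a block (adjusted p = 1.04e-13) and by DESeq2 (adjusted p = 0.000273), and not by limma-voom (adjusted p = 0.202).

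Of the 6 deposited values of DN845_c0_g1, 3 were not whole numbers (38.921 in MCR1, 1836.354 in MCR3 and 43.582 in TCR3), which is how Salmon records reads shared out among contigs. All 6 values of *HalALMT1* and of DN255355_c0_g1 were whole, and 5 of the 6 of DN4986_c0_g1 were. Summed over the contigs numbered DN845, the level was 28.4, 57.0 and 140.6 CPM in MCR1, MCR2 and MCR3, against 5.15, 4.84 and 14.2 CPM in TCR1, TCR2 and TCR3. The sum kept the order of the root types without overlap, but its MCR libraries no longer lay close together. *HalALMT1* made up 90.7%, 49.3% and 20.6% of the sum in MCR1, MCR2 and MCR3, against 94.4%, 97.5% and 83.1% in TCR1, TCR2 and TCR3. The log2 fold change of the sum was 3.22. No other contig shared the DN number of either MATE contig.

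**Figure D2:**
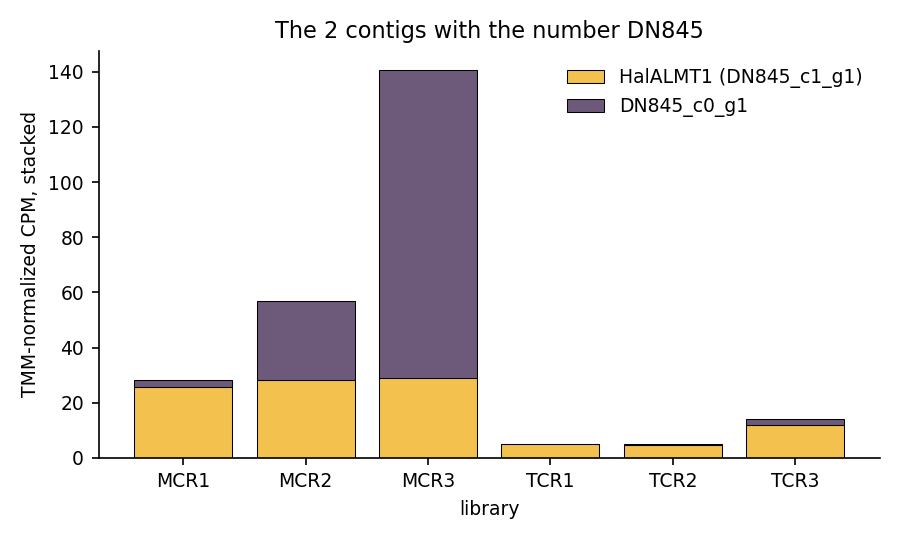
TMM-normalized CPM of *HalALMT1* (DN845_c1_g1) and of DN845_c0_g1 stacked in each library, MCR left of TCR, with no error bars because each bar is 1 library. *HalALMT1* contributes a similar height in the 3 MCR libraries, and DN845_c0_g1 adds 2.65, 28.9 and 111.6 CPM to MCR1, MCR2 and MCR3.

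Contigs named for cell division and for wall synthesis were summed next, as rough markers of what the 2 root types held. Summed over 25 contigs named for cell division (cyclins A and B, CDKB, PCNA, replication proteins and root meristem regulators), the level was 35.9 to 88.8 CPM in MCR and 481 to 892 CPM in TCR, and 20 of the 25 were called higher in TCR, where 31.7% of annotated contigs and 5.98% of all contigs tested were. Dividing cells mark root tips, and the higher sums were those of the libraries titled TCR. One of them, DN68506_c0_g1, was at 0 in every MCR library, and DN229078_c0_g1 and DN104812_c0_g1 were at 0 in every TCR library. TCR3, the TCR library with the highest level of all 3 transporters and of DN845_c0_g1, had the lowest of the TCR sums. For DN4986_c0_g1 that highest level rests on 4 counts, against 3 in TCR2. Within MCR the sums were 68.6, 88.8 and 35.9 CPM in MCR1, MCR2 and MCR3. A further 15 contigs carried an IRX symbol (wall and lignin genes), with none named for the Casparian strip or suberin. Their summed level was 719 to 1513 CPM in MCR and 1133 to 1647 CPM in TCR. The groups overlapped for these sums, and 3 of the 15 were called higher in MCR and 4 higher in TCR. DN2256_c0_g1, which is also named KOR1, held 524, 546 and 700 CPM of the TCR1, TCR2 and TCR3 sums. In MCR1, MCR2 and MCR3 it had 114, 67.2 and 111 CPM. The sums thus rest much on 1 contig and are not read as a measure of differentiated root. Of the 15, DN22185_c0_g2 was at 0 in every MCR library. In bulk roots, fewer cells of a type and less RNA per cell cannot be told apart, and the part of cell makeup in the levels of the transporters was not tested.

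Contigs named for P acquisition were higher in the libraries titled MCR. A response to low P was not measured, since no high-P roots were sequenced. Summed over 53 contigs named for phosphate transporter 1 or purple acid phosphatase, the level was 17010, 24170 and 25760 CPM in MCR1, MCR2 and MCR3, against 2484, 2780 and 2727 CPM in TCR1, TCR2 and TCR3. Of these, 23 were called higher in MCR and 30 neither way, where 10.2% of annotated contigs were called higher in MCR, and 26 of the 53 were uneven. Photosynthesis contigs, which roots should scarcely express, summed to 4.68 to 9.79 CPM in MCR and 35.2 to 46.7 CPM in TCR over 4 contigs.

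The contigs most like each transporter were sought among 3349 annotated contigs with a mean of 10 CPM or more. Likeness was the root mean square difference of log2(CPM + 0.5) over the 6 libraries, each profile centred on its own mean. Nothing about shared function or control follows from this measure. The nearest to *HalALMT1* was DN2627_c0_g1, at 0.15, named for CYP94B3, which in Arabidopsis oxidizes the jasmonate hormone conjugate. It had 211, 273 and 275 CPM in MCR1, MCR2 and MCR3, against 55.5, 50.5 and 96.9 CPM in TCR1, TCR2 and TCR3, so it too was raised in TCR3 above the other TCR libraries. The same held for DN6696_c0_g1, at 0.17, named for the iron-deficiency transcription factor bHLH38. This contig had 13.7, 15.1 and 20.9 CPM in MCR1, MCR2 and MCR3, against 2.29, 2.21 and 6.42 CPM in TCR1, TCR2 and TCR3. The others were a cysteine proteinase (DN3998_c0_g1, 0.15), SCPL12, a serine carboxypeptidase-like protein (DN7088_c0_g1, 0.21), and a pentatricopeptide repeat protein (DN6133_c0_g1, 0.22).

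DN255355_c0_g1 was nearest to DN2012_c5_g1, at 0.23, named for the plasma membrane aquaporin PIP2;5. That contig had 101.4, 94.9 and 118.0 CPM in MCR1, MCR2 and MCR3, against 0, 0.123 and 0.163 CPM in TCR1, TCR2 and TCR3. It was thus another contig with even MCR libraries and nearly no reads in TCR. Next were the cation/H+ exchanger CHX18 (DN3617_c0_g1, 0.27), the beta-glucosidase BGLU47 (DN1611_c1_g1, 0.36), and at 0.43 each KU80, a DNA repair protein (DN18327_c0_g2), and a late embryogenesis abundant protein (DN27270_c0_g1).

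DN4986_c0_g1 was nearest to DN2391_c1_g1, at 0.16, named for the beta-glucosidase BGLU12. Then came a pollen Ole e 1 and extensin family protein (DN4385_c1_g1, 0.22), a major facilitator superfamily protein (DN3753_c0_g1, 0.30), and the acetamidase/formamidase contigs DN959_c0_g1 at 0.28 and DN959_c0_g3 at 0.32. With a pseudocount of 0.1 none of these 5 was among the nearest, since DN4986_c0_g1 had 0 to 4 counts in TCR. Of the 5 nearest, 4 remained for *HalALMT1* and 3 for DN255355_c0_g1. Among the transporters, *HalALMT1* and DN4986_c0_g1 differed by 1.14, DN255355_c0_g1 and DN4986_c0_g1 by 1.54, and *HalALMT1* and DN255355_c0_g1 by 2.60.

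**Figure D3:**
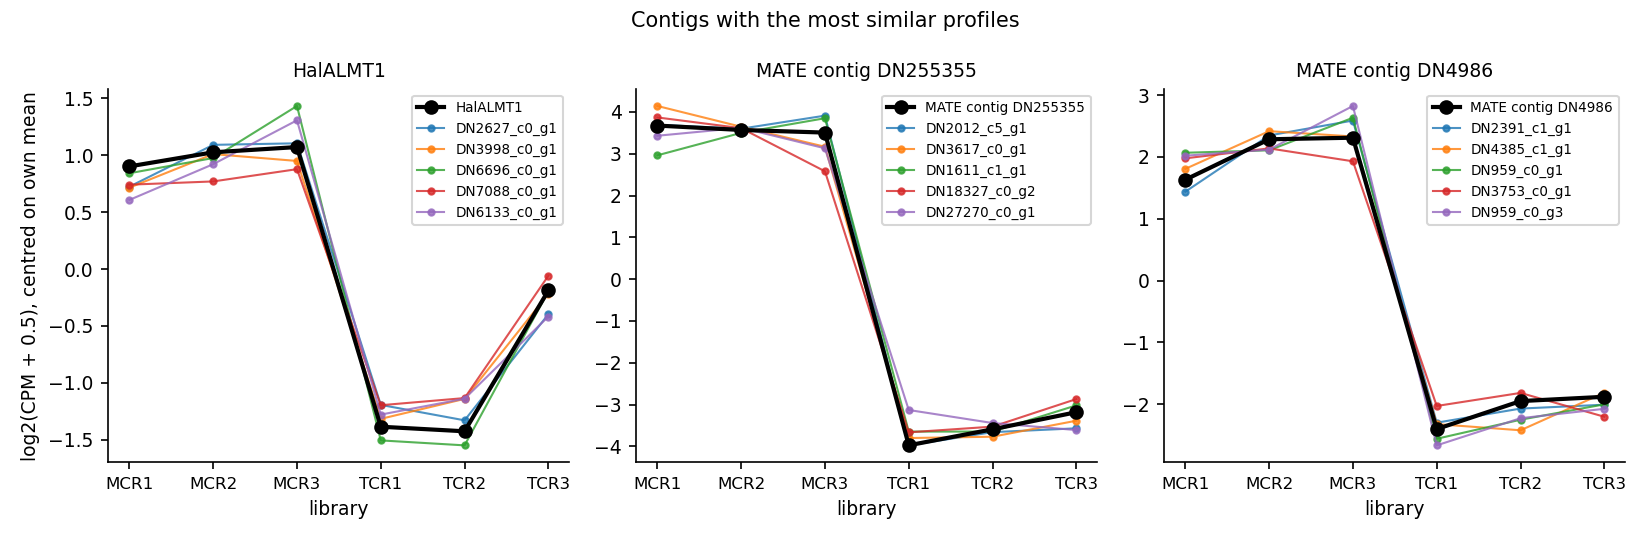
Centred log2(CPM + 0.5) of each transporter and of its 5 nearest annotated contigs over the 6 libraries, MCR left of TCR; the lines join libraries only to guide the eye. The 5 nearest contigs of *HalALMT1* lie within 0.15 to 0.22 of it, those of DN255355_c0_g1 within 0.23 to 0.43, and those of DN4986_c0_g1 within 0.16 to 0.32.

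The other named ALMT and MATE contigs mostly went the other way. Of 22 such contigs, all of them tested, 2 were called higher in MCR, 12 higher in TCR and 8 neither, which is 63.6% called. Over all contigs tested 8.39% were called (2.40% higher in MCR, 5.98% higher in TCR). Over the annotated contigs, the proper background because only these carry names, 41.9% were called (10.2% higher in MCR, 31.7% higher in TCR). The authors' table names only contigs that they listed as differing on these samples, so neither this list nor the others below is independent evidence of a direction. The median log2 fold change was -3.47, against 1.9 over annotated contigs and 0.57 over all contigs tested. Summed over the 22, the level was 185, 278 and 325 CPM in MCR1, MCR2 and MCR3, against 514, 481 and 447 CPM in TCR1, TCR2 and TCR3.

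These calls depended on single libraries. Those higher in MCR and in TCR numbered 2 and 6 when MCR1 was left out, 1 and 6 when MCR2 was, and 3 and 14 when MCR3 was. They numbered 0 and 1 in the absence of TCR1 or of TCR2, and 0 and 5 in the absence of TCR3, in fits with fewer libraries. Where none was called higher in MCR, 4, 4 and 3 had an unadjusted p below 0.05 without TCR1, TCR2 and TCR3. With the replicate number as a block they were 5 and 17, where 53.0% of annotated contigs were called higher in MCR and 46.0% higher in TCR. Values of the 2 root types did not overlap in 21 of the 22 contigs. That was so for 15.0% of annotated contigs with MCR the higher and for 43.9% with TCR the higher, and for 10.7% and 20.3% of all contigs tested.

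Both MATE contigs called higher in MCR had relatives on the other side of the comparison or among the transporters described above. DN22765_c0_g1 had the same closest match as DN255355_c0_g1, AT1G33100. It had 39.9, 98.2 and 33.6 CPM in MCR1, MCR2 and MCR3, against 12.7, 11.7 and 7.35 CPM in TCR1, TCR2 and TCR3, with a log2 fold change of 2.44 ± 0.50 (SE) and an adjusted p of 0.0285. Of the contigs with that match, DN22765_c0_g1 thus kept a level of several CPM in every TCR library, and DN255355_c0_g1 did not. DN1839_c0_g1 was named for ALF5, which confers toxin resistance on Arabidopsis roots. It had 23.0, 88.1 and 123.5 CPM in MCR1, MCR2 and MCR3, against 8.52, 9.38 and 7.68 CPM in TCR1, TCR2 and TCR3, with a log2 fold change of 3.20 ± 0.60 (SE) and an adjusted p of 0.0218.

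DN1839_c0_g2 lies in the same read cluster as DN1839_c0_g1 and was also named for ALF5. It had 1.70, 3.37 and 9.85 CPM in MCR1, MCR2 and MCR3, against 31.2, 26.1 and 33.6 CPM in TCR1, TCR2 and TCR3. Every TCR library was above every MCR library, the opposite order to DN1839_c0_g1. The log2 fold change was -2.60 ± 0.65 (SE) with an adjusted p of 0.0525, and 8.61e-07 with the replicate number as a block. Reads shared between contigs of a cluster may have been assigned to either.

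The third MATE contig with a higher mean in MCR, DN484_c1_g2 (match AT1G23300), was not called. It had 55.2, 25.4 and 8.88 CPM in MCR1, MCR2 and MCR3, against 8.66, 7.48 and 3.21 CPM in TCR1, TCR2 and TCR3, and an adjusted p of 0.112. MCR3 and TCR3 were the lowest library of their root type, the reverse of DN845_c0_g1. With the replicate number as a block the adjusted p was 0.000381. No contig in the table was named for FRD3, the citrate carrier that loads the xylem in Arabidopsis.

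Of the 15 MATE contigs with higher means in TCR, 10 were called. The TT12 match of Arabidopsis loads flavonoids into the vacuole of seed coat cells. One contig named for it, DN11165_c1_g1, had 1.70, 3.74 and 0.669 CPM in MCR1, MCR2 and MCR3, against 63.1, 57.3 and 35.7 CPM in TCR1, TCR2 and TCR3 (log2 fold change -4.67 ± 0.67 SE, adjusted p = 0.00979). The other, DN34413_c0_g1, had 16.8, 2.43 and 2.07 CPM in MCR1, MCR2 and MCR3, against 93.6, 95.9 and 79.1 CPM in TCR1, TCR2 and TCR3 (log2 fold change -3.66 ± 0.85 SE, adjusted p = 0.0428). Both were lower in every MCR library, and MCR1 stood above the other MCR libraries for the second. DN4954_c0_g1 (match AT3G03620) had 4.34, 1.81 and 2.13 CPM in MCR1, MCR2 and MCR3, against 32.1, 30.5 and 37.8 CPM in TCR1, TCR2 and TCR3. Its log2 fold change was -3.60 ± 0.45 (SE) with an adjusted p of 0.00656, and it was the only one of the 22 called under all 14 alternatives.

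The remaining MATE contigs called higher in TCR had log2 fold changes between -3.30 and -6.29. DN196_c1_g1 (match AT4G00350) had 10.0, 13.9 and 3.34 CPM in MCR1, MCR2 and MCR3, against 102.8, 88.7 and 76.6 CPM in TCR1, TCR2 and TCR3, and an adjusted p of 0.0136. DN10157_c0_g1 and DN4017_c0_g1 shared the match AT3G26590 and fell by 3.44 and 3.49 on the log2 scale. DN29245_c0_g1 and DN22687_c0_g1 shared AT1G33110 and fell by 3.39 and 5.55. DN165363_c0_g1 (AT2G38510) and DN5563_c0_g1 (AT4G29140) had log2 fold changes of -5.85 and -6.29, and like DN22687_c0_g1 they were below 0.1 CPM in every MCR library, so their folds rest on few counts.

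The other 5 MATE contigs with higher means in TCR, all without overlap, did not pass. DN1839_c0_g2 is given above. DN20119_c0_g1 (AT5G52450) had a log2 fold change of -1.90 and an adjusted p of 0.0535, DN13160_c0_g1 (ZF14) -3.66 and 0.0601, and DN20552_c2_g1 (AT1G47530) -3.56 and 0.127. DN30535_c0_g1, named for DTX35, had no count in MCR and 0.787, 0.920 and 0.599 CPM in TCR1, TCR2 and TCR3, at least 12.1-fold lower in MCR (against a floor of 3 counts over the 3 MCR libraries), and its adjusted p was 0.0569. With a block for the replicate number all 5 were called higher in TCR, with adjusted p between 7.97e-08 and 0.00217. In that fit 46.0% of annotated contigs were called higher in TCR and 53.0% higher in MCR.

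Among the ALMT contigs other than *HalALMT1*, neither of those with a higher mean in MCR was called by edgeR. DN845_c0_g1, described above, was the one with an unadjusted p below 0.05 (0.00872). DN46613_c0_g1 (match AT1G08440) had reads in MCR2 only, at 2.87 CPM, at least 15.5-fold above TCR (against a floor of 3 counts over the 3 TCR libraries), with an adjusted p of 0.211 and 0.0144 with the block. A further 2 were called higher in TCR. DN4236_c0_g1, named for ALMT12, the malate-activated anion channel of guard cells in Arabidopsis, had 14.4, 2.18 and 5.29 CPM in MCR1, MCR2 and MCR3, against 58.0, 58.0 and 40.0 CPM in TCR1, TCR2 and TCR3. Its log2 fold change was -2.84 ± 0.67 (SE) with an adjusted p of 0.045. DN3788_c0_g1 (match AT5G46610) had 0.0679, 0 and 0.0608 CPM in MCR1, MCR2 and MCR3, against 1.5, 1.10 and 2.89 CPM in TCR1, TCR2 and TCR3, and an adjusted p of 0.0358.

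**Figure D4:**
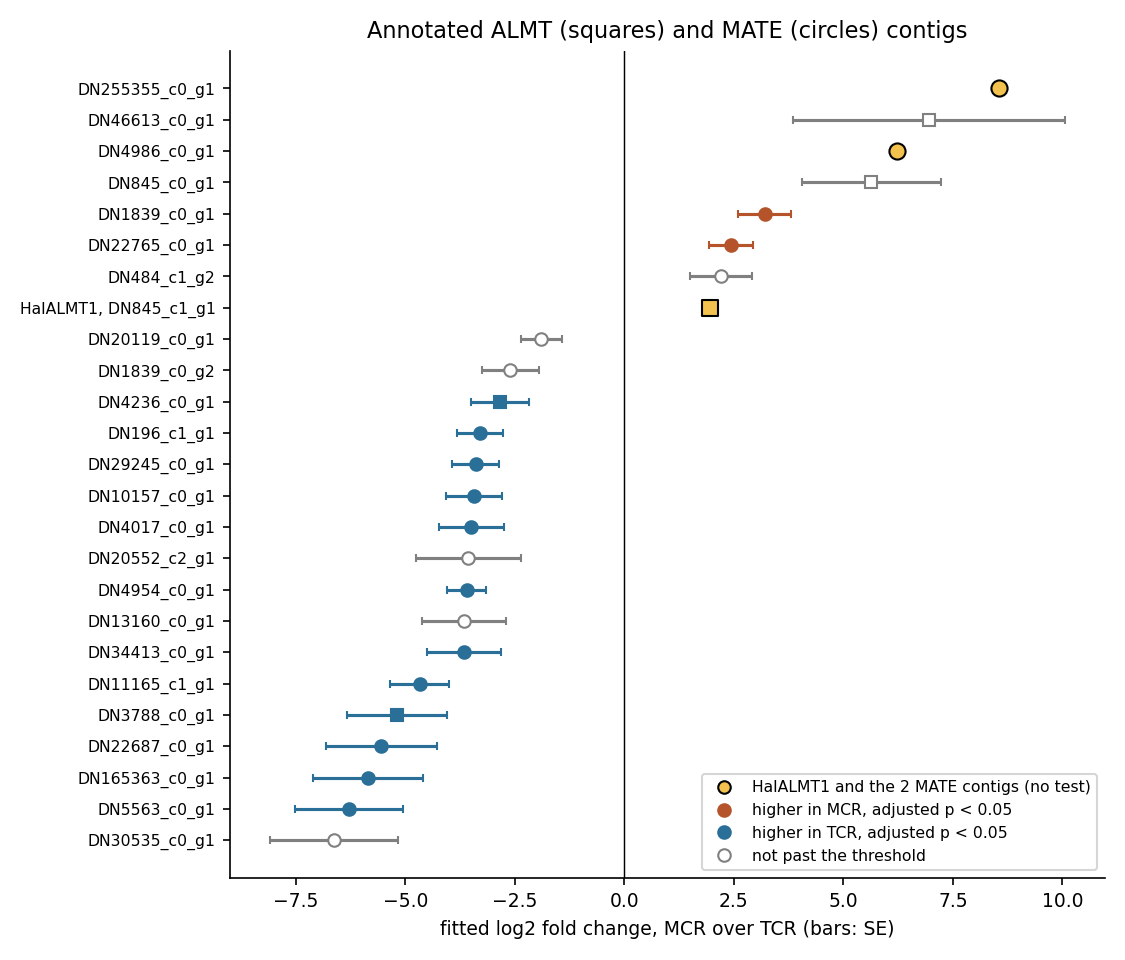
Log2 fold change (MCR over TCR) of the 22 other ALMT and MATE contigs from edgeR's quasi-likelihood fit with its standard error, with the 3 transporters of the opening shown without error because they were chosen on this contrast. Of the 22, 2 were called higher in MCR and 12 higher in TCR; the fitted values of DN46613_c0_g1 and DN30535_c0_g1, each without a count in 1 root type, depend on the prior count of the fit.

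Enzymes of malate and citrate metabolism were listed next, and what the MATE contigs carry is not known here. The list held 36 contigs named for phosphoenolpyruvate carboxylase or a kinase named after it, malate dehydrogenase, citrate synthase, aconitase, isocitrate dehydrogenase or fumarase. Of these, 7 were called higher in MCR, 1 higher in TCR and 28 neither. That is 22.2% called in either direction, below the 41.9% of annotated contigs. By direction, 10.2% of annotated contigs were called higher in MCR and 31.7% higher in TCR. The 7 of 36 higher in MCR were thus above the first share, and the 1 of 36 higher in TCR was below the second. The median log2 fold change was 4.09, or 3.71 with contigs at 0 in TCR set to their bound. Of the 36, 25 were uneven among MCR libraries, all with a higher mean in MCR, so the median rests largely on uneven contigs. Several of these, DN11888_c0_g2 and DN15612_c0_g1 among them, had no count in MCR3 or TCR3. The 7 called higher in MCR had log2 fold changes of 1.28 to 2.32. The 2 with the largest folds among those called higher in MCR were not uneven. DN2771_c0_g1 (PPC3), a phosphoenolpyruvate carboxylase, which feeds malate synthesis, had 6832, 7855 and 9206 CPM in MCR1, MCR2 and MCR3, against 1528, 1635 and 1613 CPM in TCR1, TCR2 and TCR3. Its log2 fold change was 2.32 ± 0.29 (SE) with an adjusted p of 0.00664.

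DN3567_c0_g1, named for the aconitase ACO1, which turns citrate into isocitrate, had 61.8, 58.5 and 73.7 CPM in MCR1, MCR2 and MCR3, against 12.8, 14.9 and 18.9 CPM in TCR1, TCR2 and TCR3. Its log2 fold change was 2.06 ± 0.29 (SE) with an adjusted p of 0.00872. The other 5 called higher in MCR, chosen for mention after their values were seen, were an isocitrate dehydrogenase family protein (DN8139_c0_g1, 1.70), FUM1 (DN611_c0_g1, 1.62), IDH1 (DN558_c0_g1, 1.51), MDH (DN3505_c0_g1, 1.30) and the citrate synthase CSY3 (DN13857_c0_g1, 1.28). Their log2 fold changes were thus nearer to the 1.95 of *HalALMT1* than to those of the MATE contigs. The 1 contig called higher in TCR was DN12808_c0_g1, named for PPC4, the bacterial-type carboxylase of Arabidopsis. It had 21.4, 20.2 and 11.4 CPM in MCR1, MCR2 and MCR3, against 50.0, 48.7 and 106.3 CPM in TCR1, TCR2 and TCR3 (log2 fold change -1.95 ± 0.43 SE, adjusted p = 0.0376).

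For the enzymes, too, calls depended on libraries and settings. No contig was called higher in MCR by edgeR without TCR1 or without TCR2, where 10 and 13 had an unadjusted p below 0.05. Without MCR3 15 were called, and 6 or 7 without each other library. The call higher in TCR was lost with RLE size factors and without any 1 library other than MCR3, each time with an unadjusted p below 0.05. With the replicate number as a block 35 were called higher in MCR and 1 higher in TCR.

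Proton pumps build the voltage and proton gradient that anion channels and MATE carriers use. The next list held 30 contigs named for proton pumps, SLAC-type anion channels or dicarboxylate and citrate carriers. Of these, 7 were called higher in MCR, 5 higher in TCR and 18 neither. That is 40.0% called in either direction, near the 41.9% of annotated contigs (10.2% higher in MCR, 31.7% higher in TCR). By direction, the 7 of 30 higher in MCR were above that share and the 5 of 30 higher in TCR below it. The median log2 fold change was 3.85, or 3.75 with bounds, and 15 of the 30 were uneven, all with a higher mean in MCR. This median too rests in part on uneven contigs. The largest called difference was that of DN3288_c0_g1, named for the plasma membrane H+-ATPase AHA8, with 113, 84.8 and 96.1 CPM in MCR1, MCR2 and MCR3, against 3.94, 1.96 and 0.490 CPM in TCR1, TCR2 and TCR3. Its log2 fold change was 5.53 ± 0.74 (SE) with an adjusted p of 0.0079. DN9660_c0_g1, named for AHA3, had 696, 568 and 1119 CPM in MCR1, MCR2 and MCR3, against 21.6, 20.4 and 26.7 CPM in TCR1, TCR2 and TCR3. Its log2 fold change was 5.12 ± 0.39 (SE) with an adjusted p of 0.00221.

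Other pumps were higher in TCR. DN1540_c0_g1, named for AHA11, had 5.84, 3.56 and 1.28 CPM in MCR1, MCR2 and MCR3, against 29.5, 27.3 and 28.3 CPM in TCR1, TCR2 and TCR3 (log2 fold change -3.0 ± 0.57 SE, adjusted p = 0.022). DN16742_c0_g1, named for the vacuolar pyrophosphatase AVP1, had 3.73, 1.81 and 4.38 CPM in MCR1, MCR2 and MCR3, against 22.4, 23.8 and 32.0 CPM in TCR1, TCR2 and TCR3 (log2 fold change -2.98 ± 0.45 SE, adjusted p = 0.0112). Pumps named for different AHA genes thus lay on both sides. The single anion channel called, chosen for mention after its values were seen, was DN82_c0_g1, named for SLAH1, with a log2 fold change of 1.91 ± 0.43 (SE) and an adjusted p of 0.039. Those higher in MCR and in TCR numbered 4 and 4 with MCR1 left out, 7 and 3 with MCR2 left out, 8 and 7 with MCR3 left out, 3 and 1 without TCR1, 2 and 0 without TCR2, and 4 and 4 without TCR3. With the replicate number as a block they were 23 and 7, where 53.0% of annotated contigs were called higher in MCR and 46.0% higher in TCR.

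In Arabidopsis, PHR1-type factors switch on low-P genes and SPX proteins hold them back, while LPR1, LPR2 and PDR2 set root growth at low P. Of 14 contigs with such names, 2 were called higher in MCR, 2 higher in TCR and 10 neither. That is 28.6% called in either direction, below the 41.9% of annotated contigs (10.2% higher in MCR, 31.7% higher in TCR). By direction, 2 of 14 was slightly above the share higher in MCR and below the share higher in TCR. None was named for STOP1 or another regulator of the Al response, and 1, DN51084_c2_g1, is the auxin transport protein BIG, which carries LPR1 as an alias. The median log2 fold change was 3.51, or 3.41 with bounds. It too rests in part on uneven contigs, since 7 were uneven, all with a higher mean in MCR. DN6290_c0_g1, named for the PHR1 relative PHL1, had 46.8, 39.9 and 111.6 CPM in MCR1, MCR2 and MCR3, against 4.87, 4.41 and 10.2 CPM in TCR1, TCR2 and TCR3 (log2 fold change 3.34 ± 0.56 SE, adjusted p = 0.0157). Like *HalALMT1*, it was highest among TCR libraries in TCR3. DN6755_c2_g1, named for SPX1, had 312, 482 and 508 CPM in MCR1, MCR2 and MCR3, against 164, 165 and 187 CPM in TCR1, TCR2 and TCR3 (log2 fold change 1.34 ± 0.29 SE, adjusted p = 0.0338).

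Of the 2 called higher in TCR, 1 was named for SPX3 and 1 for a major facilitator family protein that has an SPX domain. DN2651_c0_g3, named for SPX3, had 2.38, 1.5 and 1.58 CPM in MCR1, MCR2 and MCR3, against 10.4, 9.75 and 8.11 CPM in TCR1, TCR2 and TCR3 (log2 fold change -2.37 ± 0.48 SE, adjusted p = 0.0285). Another SPX3 contig of that read cluster, DN2651_c0_g1, was chosen for mention after its values were seen. It went the other way at a higher level, with 75.1, 240 and 193 CPM in MCR1, MCR2 and MCR3, against 59.8, 68.2 and 37.1 CPM in TCR1, TCR2 and TCR3. It was not called (log2 fold change 1.62 ± 0.48 SE, adjusted p = 0.0863). DN3220_c0_g1, a major facilitator protein with an SPX domain, had 20.1, 10.3 and 9.97 CPM in MCR1, MCR2 and MCR3, against 45.2, 52.8 and 36.8 CPM in TCR1, TCR2 and TCR3 (log2 fold change -1.74 ± 0.38 SE, adjusted p = 0.0352). Contigs named for SPX1 and SPX3 therefore lay on both sides. Those higher in MCR and in TCR numbered 3 and 1 with MCR1 left out, 1 and 0 with MCR2 left out, 4 and 2 with MCR3 left out, 0 and 0 without TCR1, 0 and 0 without TCR2, and 1 and 1 without TCR3. With the replicate number as a block they were 10 and 3, where 53.0% of annotated contigs were called higher in MCR and 46.0% higher in TCR.

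**Figure D5:**
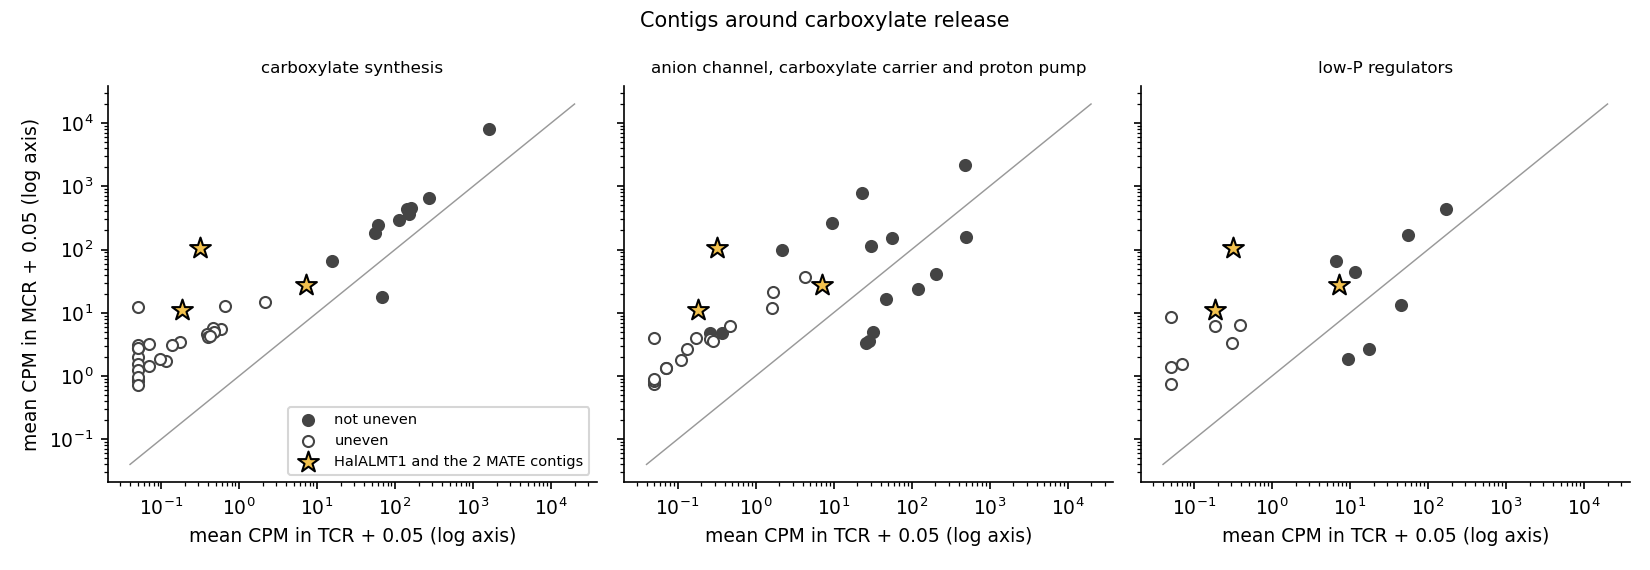
Mean TMM-normalized CPM plus 0.05 in MCR (vertical) and in TCR (horizontal), on log axes, for the enzyme list, the pump, channel and carrier list and the regulator list; each point is 1 contig, open where it was uneven among libraries, stars mark *HalALMT1* and the MATE contigs, and the line marks equal levels. Uneven contigs (25, 15 and 7 in the 3 panels) lie at low TCR levels, and of the 36 enzyme contigs 35 lie above the line.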

How the data were processed

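RNA-Seq was performed on poly(A) RNA from 3 MCR and 3 TCR libraries of *H. laurina*, grouped by the sample titles. The estimated counts were deposited by the authors without normalization, 1 value per contig and library, after cleaning with Trimmomatic 0.39, *de novo* assembly with Trinity and quantification with Salmon 1.9.0 (versions from the submitters' processing notes). How transcripts were summed to contigs is not given in the sources used here. The CPM values in the second deposited table were normalized by the authors with edgeR 4.0.14 after contigs below 0.4 CPM had been removed. From that table only the contig names (closest TAIR10 match) were used. Its mean, fold change, p and q columns hold the authors' own comparison and were not used.

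Between 7.641% and 10.346% of the values in a library were not whole, and all counts were rounded. Contigs with a mean of 0.4 CPM or more in at least 1 root type were tested with edgeR 4.0.16 in R 4.3.3 (TMM factors 0.868 to 1.18, quasi-likelihood test, Benjamini-Hochberg). Standard errors were taken as the log2 fold change divided by the root of F. CPM given for single contigs are TMM-normalized. Counting intervals are exact binomial. Tables were handled in Python 3.11.15 with pandas 2.3.3, numpy 2.4.6 and scipy 1.17.1. The test was tried on simulated data, a check whose outcome is not reported here. A contig not called may still differ between the root types. Nothing in the labels says that the libraries came from separate plants, so p-values measure only the spread between these libraries, which may be technical. With 3 libraries against 3, an exact test of 1 contig could not pass 0.05, so p-values come from the fit across contigs.

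The contigs named are the 3 transporters, other contigs with the same DN number, every other annotated ALMT or MATE contig, the 2 called contigs with the largest fold in each direction of the other lists, and the 5 with the most similar profile. The transporters, lists and rules were chosen with earlier results of these data known. The alternatives were other filters, RLE size factors, library size alone, DESeq2 1.42.0, limma-voom (limma 3.58.1), a replicate block, sums over contigs with the same DN number, another pseudocount and each library left out.

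Libraries with the same number deviated together. Over 14706 contigs with a mean above 5 CPM, the Pearson correlation across contigs of deviations from the root type means was 0.336 for MCR1 with TCR1, 0.363 for MCR2 with TCR2 and 0.477 for MCR3 with TCR3, against -0.502 to 0.316 for other pairs. MCR1 with TCR2 (0.316) was close to MCR1 with TCR1, so these values do not separate the numbers 1 and 2. Every pair of a library numbered 3 with one numbered 1 or 2 was negative (-0.502 to -0.2945). Deviations from the mean of 3 libraries cancel within a root type. These negative values thus follow in part from the positive value of MCR3 with TCR3. The numbers were treated as pairing the libraries in an alternative fit, and its p-values depend on that choice. This pairing comes from the numbers in the titles.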

Additional observations from a re-analysis of the deposited data

How the results depend on the processing

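The log2 fold changes of the 3 transporters stayed positive under all 14 alternatives of each. With 1 library left out they ranged from 1.73 to 2.56 for *HalALMT1*, from 8.16 to 9.34 for DN255355_c0_g1 and from 5.71 to 6.76 for DN4986_c0_g1. For *HalALMT1* the sum over the contigs numbered DN845 gave 3.22. Leaving out both MCR3 and TCR3, an alternative chosen after the data were seen, gave 2.45 for *HalALMT1* and 9.29 for DN255355_c0_g1. Library size alone shifted the median log2 fold change of all contigs by -0.21.

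Counts of calls moved more, and the cause was not tested. Counts are given here as higher in MCR and then higher in TCR. Over all contigs they were 2173 and 3512 where the CPM minimum had to be met in 3 libraries or more, 4959 and 4281 with every contig that had a count, 4207 and 5086 by DESeq2, 10008 and 7696 with the replicate block, and 8063 and 7805 without MCR3 and TCR3. For the other ALMT and MATE contigs they were 5 and 17 with every contig, 4 and 16 by DESeq2, 5 and 17 with the block, and 4 and 14 without MCR3 and TCR3. For the enzymes they were 35 and 1 with every contig, 15 and 1 by DESeq2, 35 and 1 with the block, 23 and 1 without MCR3 and TCR3, and 7 and 0 with the CPM minimum in 3 libraries or with RLE size factors. For pumps, channels and carriers they were 23 and 7 with every contig, 23 and 7 with the block, and 13 and 7 without MCR3 and TCR3. For the regulators they were 11 and 3 with every contig, 5 and 3 by DESeq2, 10 and 3 with the block, and 6 and 2 without MCR3 and TCR3.

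With 1 library left out, calls over all contigs ranged from 208 to 3200 higher in MCR and from 327 to 4260 higher in TCR. The ranges were 0 to 3 and 1 to 14 for the other ALMT and MATE contigs, 0 to 15 and 0 to 1 for the enzymes, 2 to 8 and 0 to 7 for pumps, channels and carriers, and 0 to 4 and 0 to 2 for the regulators. Fits with 2 libraries in 1 root type test fewer samples. Where edgeR called no regulator, 3 higher in MCR and 3 higher in TCR had an unadjusted p below 0.05 without TCR1, 4 and 3 without TCR2, and 3 higher in TCR without MCR2, as did 5 pumps, channels or carriers higher in TCR without TCR2. None of the 22 other ALMT and MATE contigs and the 11 contigs named by rule from the other lists changed direction under the alternatives run. The replicate block added calls for the 8 ALMT and MATE contigs not called without it, and changed no other call of these contigs. With that block 53.0% of annotated contigs were called higher in MCR and 46.0% higher in TCR. The TCR levels of DN255355_c0_g1 and DN4986_c0_g1 rest on 14 and 7 counts.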
